A study of Mus musculus with 19 samples.

Results

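The MYC network was described in primary mouse sarcomas through 10 genes, chosen by symbol from the 48795 gene identifiers of the RNA table. These genes are the MYC family (Myc, Mycn and Mycl), their partner Max, the MXD repressors (Mxd1, Mxd3, Mxd4 and Mxi1), Mnt and Mga. All 10 were measured in all 19 tumors. Each library is 1 p53/MCA sarcoma, 11 labelled Rag2-/- and 8 labelled Rag2+/-, from littermates of both sexes whose strain is not given in the sources used here. The mice were 6 to 10 weeks old at induction, and every tumor arose in the gastrocnemius muscle after intramuscular injection of adenoviral Cas9 with a Trp53 guide and 300 µg of the carcinogen methylcholanthrene (MCA) at 6 µg/µl in sesame oil. Trp53 was thus targeted in both groups, no immunotherapy or radiation was given, and tumors were collected whole at 70 to 150 mm3. Rag2 is needed to assemble antigen receptors, so Rag2-/- mice lack mature T and B cells, and the comparison asks how the network stands in tumors that grew without or with them. Tumors are named here by the library code in the labels, such as S56.

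MYC, N-MYC and L-MYC are transcription factors that bind DNA only as a pair with MAX, and they drive genes for ribosome production, nucleotide synthesis, metabolism and the cell cycle. MXD proteins, MXI1, MNT and MGA pair with the same MAX, bind the same DNA and repress many of the same genes, largely through the SIN3 complex or, for MGA, a Polycomb complex. The balance of the family and its antagonists is known to shift from growth towards rest and differentiation as MYC falls and MXD proteins rise. MYC itself is short-lived and is regulated strongly after transcription, which RNA values do not show.

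Values are log2 of upper-quartile normalized FPKM with 0.1 added, a level per transcript length, so genes can be set beside each other. The lowest possible value is -3.32. By an estimate from the low values, S41 held 5.24 M fragments on genes and the other 18 tumors 24.9 to 33.8 M. Rag2 RNA did not serve as a check of the labels, since it was higher in tumors labelled Rag2-/- (-0.34 ± 0.74, SD, n = 11) than in those labelled Rag2+/- (-1.31 ± 0.70, SD, n = 8, two-sided exact permutation test, p = 0.0123), and the values do not show which part of the gene was transcribed. Mean values of 12 T cell genes ran from -2.44 to -1.29 in tumors labelled Rag2-/- and from 0.25 to 2.49 in those labelled Rag2+/-, with no overlap, and genotypes are given below as labelled. The mean of 10 mesenchymal genes was between 5.70 and 8.0 in every tumor, and that of 6 epithelial genes between -2.82 and 2.29. Genes of skeletal muscle, the tissue around the tumors, set 5 tumors apart. The mean of 14 muscle genes was 11.5 to 12.8 in S51 (Rag2-/-) and S52, S56, S59 and S60 (Rag2+/-), and 4.01 to 9.56 in the other 14. That of the 10 mesenchymal genes was 5.70 to 7.16 in these 5 tumors and 7.21 to 8.0 in the other 14, without overlap. The muscle mean was 7.67 ± 1.99 (SD, n = 11) in Rag2-/- and 9.87 ± 2.41 (SD, n = 8) in Rag2+/- tumors, so muscle content moves with genotype in these tumors. In bulk tissue, fewer cells of a type and less RNA per cell cannot be told apart. Xist was above 0 in 7 of 11 Rag2-/- and 3 of 8 Rag2+/- tumors, and the part of sex in the results was not tested.

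The DNA word that MYC-MAX and MXD-MAX pairs bind is the E-box CACGTG, which reads the same on both strands. RefSeq promoters of build GRCm38.p6, 250 bases before to 50 after a start site, were available for 9 of the 10 members and were searched for it. The word was found in 3 of the 9, those of Max, Mnt and Mxd4, and in 15 of 40 MYC-induced genes (37.5%). It was present in 11.8% of the promoters of 9810 genes with a mean log2 value above 0 and in 7.15% of all 32851 promoters. A match is a description of the letters and not evidence of binding. The members' matches are printed with 2 from MYC-induced genes that are set against each other below, Cdk4 and Ldha. The Cdk4 window holds 4 matches and that of Ldha 2, and for each the match nearest the start site is shown. Capitals mark the E-box, and each stretch runs 5′ to 3′ along its gene.
Max, chr12:76962235-76962262, minus strand, E-box from 3 bases before the start site: gtgagcccggtCACGTGttagggggccg
Mnt, chr11:74830790-74830817, plus strand, from 123 bases before: cccacccaagcCACGTGtgcgcgcgcgg
Mxd4, chr5:34187913-34187940, minus strand, from 219 bases before: ggctgggccacCACGTGctgttgctaag
Cdk4, chr10:127063513-127063540, plus strand, from 11 bases before: agggtgaagatCACGTGtccagaacgtc
Ldha, chr7:46845745-46845772, plus strand, from 48 bases before: ggcccagcctaCACGTGggttcccgcac
The Max match spans the start site itself.

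Myc was the MYC gene of these sarcomas. The gene (ENSMUSG00000022346) occupies chromosome 15 from 61985391 to 61990374 in GRCm38, plus strand. Its level was lowest at 3.33 (S51), 5.29 at the median and highest at 6.18 (S48) in Rag2-/- tumors, and lowest at 2.28 (S56), 4.74 at the median and highest at 6.00 (S53) in Rag2+/- tumors. The groups overlapped over nearly their whole range, and the 5 tumors rich in muscle genes held 4 of the 5 lowest values. In linear normalized FPKM, with the authors' 0.1 taken off, Myc ran from 4.75 (S56) to 72.4 (S48) over the 19 tumors. An estimated 131 to 4684 fragments lay behind each value, so counting error is small beside the spread between tumors.

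Mycl (ENSMUSG00000028654), on the plus strand of chromosome 4 from 122995652 to 123002485, was far lower. It is a family member known best from lung cancer and dendritic cells. Its level ran from -0.45 (S41) through a median of 0.06 to 0.94 (S46) in Rag2-/- tumors, and from -2.50 (S56) through 0.13 to 1.19 (S53) in Rag2+/- tumors. S56 stood alone at the low end, with 3 estimated fragments against a median of 72 over all tumors. Mycn (ENSMUSG00000037169), on the minus strand of chromosome 12 from 12936093 to 12941914, is the member best known from neural tumors. It was below 0 in all 19 tumors and at the lowest value in S51, S52 and S60. Its highest levels were -0.38 (S54) and -0.39 (S50), with at most 47 estimated fragments, and small differences in Mycn were not detectable at this depth.

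Of the summed linear level of the MYC family, Myc made up 95.1% ± 3.0 (SD, n = 19). That share was lowest in S46 at 87.9%, where Mycl reached 12.0%, and highest in S48 at 98.2%. Mycn had its largest share, 7.11%, in S56, the tumor with the least Myc. In each tumor, then, at least 87.9% of MYC family RNA came from Myc.

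Max (ENSMUSG00000059436, chromosome 12, 76937269 to 76962201, minus strand) had the highest mean level of the network, 4.97 ± 0.37 (SD, n = 19). In Rag2-/- tumors it was between 4.93 (S50) and 5.37 (S43) with a median of 5.15, and in Rag2+/- tumors between 3.91 (S56) and 5.27 (S55) with a median of 4.77. The Rag2-/- tumors lay in a band of 0.44 log2 units, at the upper end of the Rag2+/- range. Myc varied far more than its partner, with an SD of 1.08 against 0.37, and it exceeded Max in 11 of 19 tumors. The Myc to Max ratio in linear FPKM ran from 0.265 (S51) to 2.89 (S53).

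Mxd4 (ENSMUSG00000037235, chromosome 5, 34173883 to 34187720, minus strand) was the most abundant antagonist in 18 of 19 tumors. Its level was 3.94 (S51) to 5.75 (S46) with a median of 4.72 in Rag2-/- tumors and 4.19 (S53) to 4.72 (S56) with a median of 4.37 in Rag2+/- tumors. S46 stood well above the next highest tumor, S48 at 4.86, and the groups otherwise overlapped. An antisense transcript, Gm42846, shares 514 of the 8483 exonic bases of Mxd4, and since no source used here says that counting used strand, reads of the pair cannot be told apart. Mxd4 belongs to the MXD genes typical of quiet, differentiated cells.

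Mxd1 (ENSMUSG00000001156, chromosome 6, 86647042 to 86669161, minus strand) is induced as many cells leave the cycle, and mature neutrophils are known for high levels of it. It ran from 2.05 (S50) through 2.96 to 5.01 (S51) in Rag2-/- tumors and from 1.33 (S56) through 2.61 to 3.63 (S55) in Rag2+/- tumors. S51 was the only tumor of 19 in which Mxd1 exceeded Myc, at 32.2 against 9.97 normalized FPKM. Mxd1 supplied 45.4% of the antagonists' summed level there and 12.6% ± 8.7 (SD, n = 19) over all tumors. S51 had a muscle gene mean of 11.5, a proliferation gene mean of 0.79, the lowest of all tumors, and a neutrophil gene mean of 3.03, and the part of these in the Mxd1 value was not tested.

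Mxd3 (ENSMUSG00000021485, chromosome 13, 55325168 to 55329823, minus strand) differs from the other MXD genes in being made by dividing cells, in S phase. Its level was 0.12 (S51) to 3.47 (S48) with a median of 2.74 in Rag2-/- tumors and 0.74 (S60) to 2.97 (S53) with a median of 1.79 in Rag2+/- tumors. The 5 muscle-rich tumors ran from 0.12 to 1.54 and the other 14 from 1.90 to 3.47, with no overlap. Mxd3 shares 105 of its 2369 exonic bases with Prelid1 on the opposite strand.

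Mxi1 (ENSMUSG00000025025, chromosome 19, 53310518 to 53375810, plus strand) was the only member with a lower mean in Rag2-/- tumors. It ran from 2.77 (S46) through 3.30 to 3.84 (S42) there and from 3.23 (S52) through 3.50 to 4.06 (S56) in Rag2+/- tumors, with broad overlap. The annotated gene Gm10197 shares 194 of its 6823 exonic bases on the other strand. Mnt (ENSMUSG00000000282, chromosome 11, 74830920 to 74845725, plus strand), a broadly expressed antagonist, was the steadiest member, with an SD of 0.24 over 19 tumors. It ran from 2.45 (S47) through 2.75 to 3.04 (S41) in Rag2-/- and from 2.20 (S56) through 2.57 to 2.77 (S58) in Rag2+/- tumors. Mga (ENSMUSG00000033943, chromosome 2, 119897228 to 119969581, plus strand), a large protein that brings MAX to a Polycomb complex, ran from 2.59 (S46) through 3.29 to 3.69 (S50) and from 2.74 (S56) through 3.03 to 3.58 (S53).

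**Figure D1:**
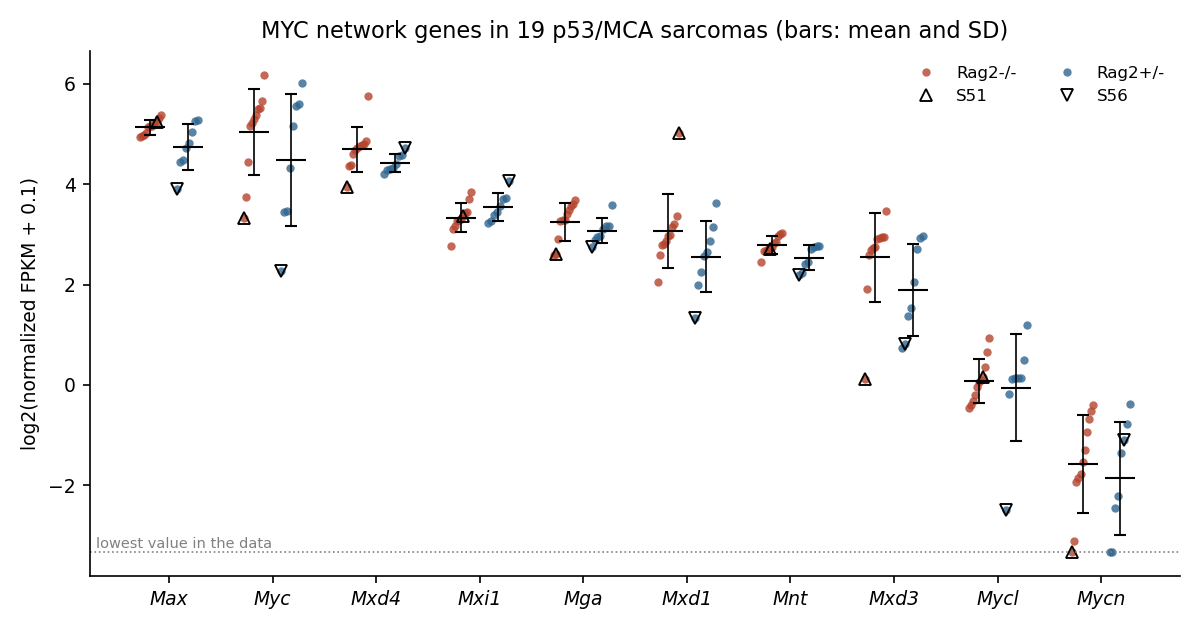
Level of each MYC network gene, as log2(normalized FPKM + 0.1), in each of 11 Rag2-/- (red) and 8 Rag2+/- (blue) tumors, with genes ordered by mean, horizontal bars for the group mean and whiskers for 1 SD; triangles mark S51 (upward) and S56 (downward). The groups overlap for all 10 genes, S51 is high for Mxd1 at 5.01 and low for Mxd3 at 0.12, and S56 is the lowest tumor for Myc, Mycl, Max, Mxd1 and Mnt.

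Ordered by mean level over the 19 tumors, the network ran Max (4.97), Myc (4.80), Mxd4 (4.58), Mxi1 (3.42), Mga (3.17), Mxd1 (2.85), Mnt (2.68), Mxd3 (2.27), Mycl (0.02) and Mycn (-1.70). Neighbours in that order differed by more than 1 SD of their within-tumor difference at 3 steps. Mxd4 was above Mxi1 by 1.15 ± 0.54 (SD, n = 19) in 19 of 19 tumors, Mxd3 above Mycl by 2.24 ± 1.06 in 18, and Mycl above Mycn by 1.72 ± 1.47 in 18. At the other 6 steps the neighbours did not differ beyond this spread. Max, for example, was above Myc in 8 of 19 tumors.

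Summed in linear FPKM, the 6 antagonists outweighed the MYC family in nearly every tumor. Their sum was 69.8 ± 7.0 (SD, n = 11) in Rag2-/- tumors, from 58.4 (S43) to 84.9 (S46), and 58.1 ± 4.2 (SD, n = 8) in Rag2+/- tumors, from 51.9 (S52) to 66.3 (S55). The MYC family sum was 38.7 ± 17.7 (SD, n = 11) and 31.4 ± 22.2 (SD, n = 8). The ratio of the family to the antagonists was 0.56 ± 0.25 in Rag2-/- and 0.53 ± 0.36 in Rag2+/- tumors, between 0.0896 (S56) and 1.12 (S53). It was above 1 in 1 tumor, S53. These sums are scores over chosen genes and were not tested. Over the 19 tumors the antagonist sum had an SD of 8.34 and the family sum one of 19.5.

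**Figure D2:**
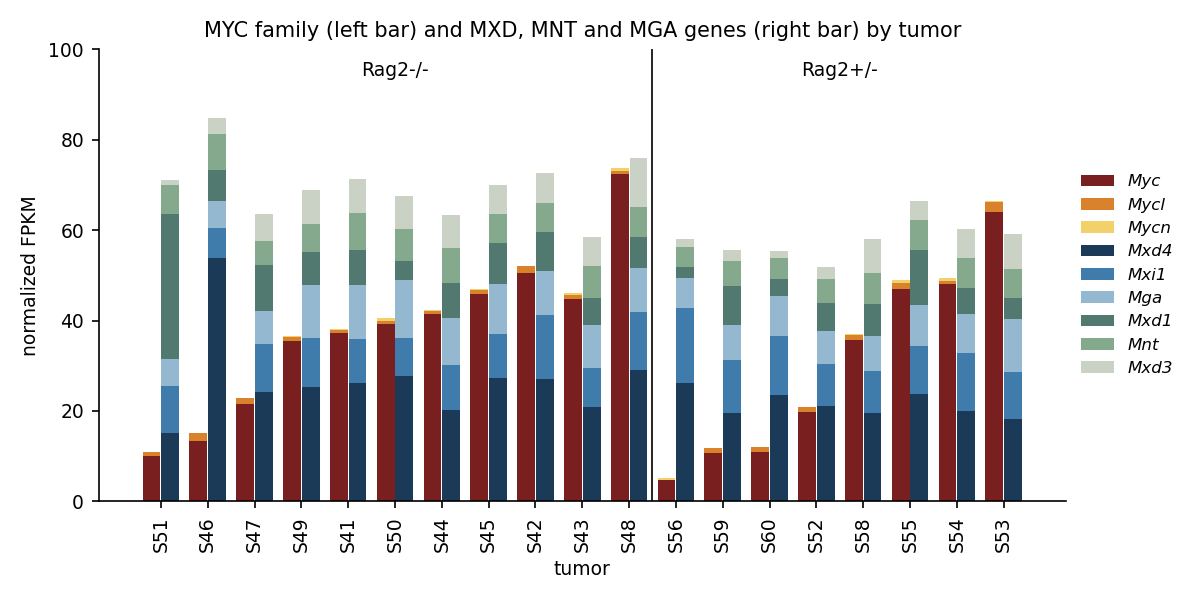
Summed level of the MYC family (left bar of each pair) and of the antagonists (right bar) in linear normalized FPKM, stacked by gene, for each tumor, ordered within genotype by the ratio of the sums. Antagonist bars lie between 51.9 and 84.9, while Myc rises from 4.75 in S56 to 72.4 in S48, and Mxd1 fills 45.4% of the antagonist bar in S51 and Mxd4 63.3% in S46.

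Between genotypes, no member passed limma's test. With Benjamini-Hochberg adjustment over 12826 genes, 0 of the 9 members among them had an adjusted p under 0.05, where 0.0312% of all genes did (4 genes). Their adjusted p-values were 0.301 to 0.829. The mean of Mycn was below 0, the filter on low values, so it was not among these genes. Its values come from a fit over every gene that varied between tumors, with an adjusted p of 0.748 over those genes and of 1 by limma when constant genes were kept as well. At an unadjusted p under 0.05, 2 of 10 members, Max and Mnt, were past the threshold, against 16.3% of all genes in either direction and 6.74% of all genes higher in Rag2-/- tumors. That share of all genes rests on single tumors. It was 7.16% without S56, 8.03% without S59 and 8.17% without S60, and 25.1% without S53 and 32.4% without S51, and 1, 1, 1, 2 and 4 members were past the threshold in these sets. Means were higher in Rag2-/- tumors for 9 of 10 members and for 7209 of the 12826 genes tested. For 0 of 10 members the groups did not overlap, as for 0.0156% of all genes.

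The mean of Max was higher in Rag2-/- tumors by 0.39 (SE 0.15, unadjusted p = 0.0168 and adjusted p = 0.301 by limma, two-sided exact permutation p = 0.0104). Without S56 the difference was 0.27. That of Mnt was higher by 0.25 (SE 0.11, unadjusted p = 0.0394 and adjusted p = 0.304, exact permutation p = 0.0182). Neither passed the adjustment. With the muscle covariate the Mnt difference was 0.11 (SE 0.11). In the 15 tumors listed in the source data of the study, which leave out S41, S46, S51 and S56, Max differed by 0.24 (unadjusted p = 0.104 by limma) and Mnt by 0.15 (unadjusted p = 0.201 by limma), so neither was past the unadjusted threshold there.

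Myc differed by 0.56 (SE 0.47, approximate 95% interval -0.36 to 1.48, adjusted p = 0.476 by limma), with an exact permutation p of 0.275. Without S56 the difference was 0.25. The interval reaches from a lower level in Rag2-/- tumors to a higher one by over 1 log2 unit, so these 19 tumors leave the size of a Myc difference wide. Mxd3 and Mxd1 had estimates of like size, 0.65 (SE 0.39, adjusted p = 0.366 by limma) and 0.52 (SE 0.32, adjusted p = 0.372). Without S51 that of Mxd1 was 0.33. Mxd4 differed by 0.27 (SE 0.17) and Mxi1 by -0.21 (SE 0.14), with adjusted p of 0.374 and 0.387 by limma. For Mga, Mycn and Mycl the differences were 0.17, 0.28 and 0.13, each smaller than the spread between tumors. Mycl turned to -0.21 without S56, and Mycn was at 0.08 without S60. Without S46 Mxd4 was at 0.17, and without S56 Mxi1 was at -0.14.

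With the mean of the muscle genes as a covariate, 0 of 10 members had an unadjusted p under 0.05, where 4.13% of all genes did. The Myc difference went from 0.56 to -0.32 (SE 0.32) and that of Mxd3 from 0.65 to -0.07 (SE 0.28). Max went from 0.39 to 0.26 (SE 0.16, unadjusted p = 0.110 by limma) and Mxd1 from 0.52 to 0.65 (SE 0.36, unadjusted p = 0.0848 by limma). Among the 15 listed tumors, 2 of 10 members had an unadjusted p under 0.05, against 22% of all genes. These were Mxd3, with a difference of 0.83 (unadjusted p = 0.0148, adjusted p = 0.220 by limma), and Mxd4, with 0.27 (unadjusted p = 0.0177 by limma), and again 0 of 10 passed the adjustment. In the same 15 tumors Mxd1 was at 0.15, Mycn at 0.80 and Mxi1 at -0.07 (unadjusted p = 0.547, 0.106 and 0.609 by limma).

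**Figure D3:**
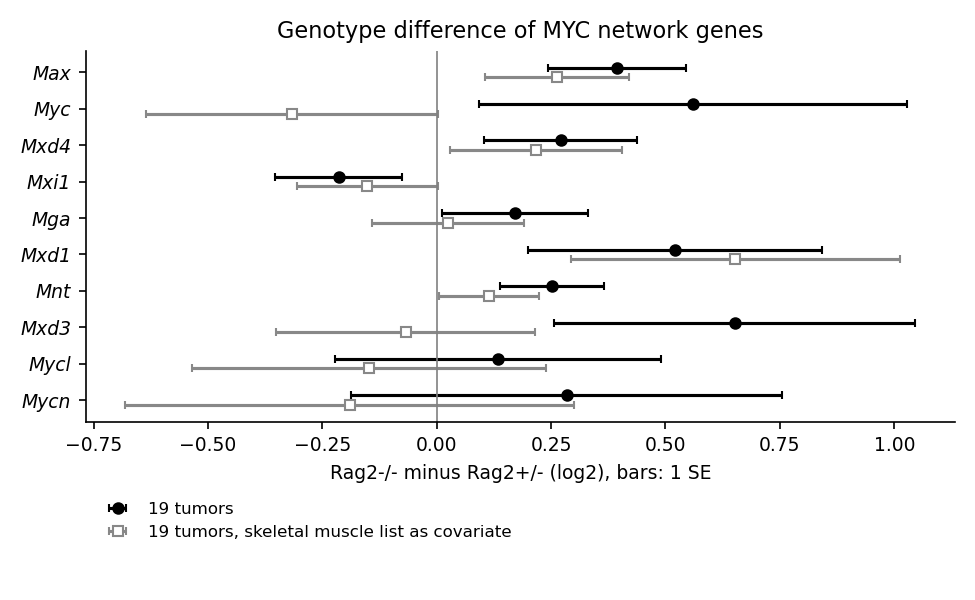
Difference of mean log2 level, Rag2-/- minus Rag2+/-, for each member with 1 SE, from limma on 19 tumors (filled circles) and with the skeletal muscle gene mean as a covariate (open squares). Filled circles lie above 0 for 9 of 10 members, and with the covariate Myc moves to -0.32 and Mxd3 to -0.07.

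Across the tumors, Myc RNA was high where genes that MYC is known to induce were high. The list holds 49 genes, mostly of ribosome production (Nop56, Nop58, Fbl, Ncl, Npm1), nucleotide and polyamine synthesis (Cad, Srm) and the cell cycle (Cdk4, Ccnd2, Mcm5). With their mean, Myc had Pearson r = 0.874 and Spearman rho = 0.812 (n = 19, permutation p = 1e-05, the smallest the permutations can give, for r and 2e-05 for rho, adjusted p = 0.0002 and 0.0006 over 60 relations of 10 members with 6 lists). Leaving out S46 and S60, which lay farthest from the list median, gave r = 0.902. Within genotypes r was 0.923 in Rag2-/- (n = 11, permutation p = 0.0003, adjusted p = 0.006) and 0.878 in Rag2+/- tumors (n = 8, exact permutation p = 0.00816, adjusted p = 0.0612), which does not pass the adjustment. Among the 14 tumors with a muscle gene mean below 10, r was 0.883 and rho 0.613. Among the 13 of these without S46, r was 0.720 (permutation p = 0.00569, adjusted p = 0.0984), which no longer passes the adjustment. S46 had low Myc (3.75) and the lowest MYC-induced mean (3.74) without high muscle genes, and it had the highest macrophage gene mean, 8.06. Its mesenchymal gene mean, 7.21, was the lowest of the 14 tumors with fewer muscle genes.

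Gene by gene, 37 of 48 tested MYC-induced genes (77.1%) had a rho with Myc above 0.5, as did 30.3% of 12825 genes tested. So did 8 of 10 mesenchymal genes (80%), while 13 of 14 skeletal muscle genes were under -0.5. The median rho was 0.68 for the MYC-induced list, 0.69 for the mesenchymal genes and 0.09 for all genes. A high rho with Myc was thus not particular to the MYC-induced list. These are descriptions over 19 shared tumors, and genes are not independent replicates. Examples chosen after their values were seen are Npm1, a nucleolar chaperone, at 0.87 and Ncl, nucleolin, at 0.80. Cdk4, the G1 kinase with a promoter match printed above, also chosen so, was at 0.75. Opposite to the list were 3 genes under -0.5 (6.25%), as were 23.5% of all genes. These 3 were Ldha (-0.69) and Hk2 (-0.67), enzymes of glycolysis that skeletal muscle also makes, and Ndufaf4 (-0.56), an assembly factor of respiratory complex I. Ldha carries E-boxes in its promoter window as Cdk4 does.

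In the genotype comparison itself, 0 of 48 MYC-induced genes passed the adjustment by limma. At an unadjusted p under 0.05, 1 was higher in Rag2-/- tumors, Slc19a1, the folate carrier (0.57, SE 0.26), and 5 were lower, against 16.3% of all genes in either direction and 6.74% higher. The lowest p among the latter had Hk2 (-1.06, SE 0.40), Ndufaf4 (-0.65, SE 0.25) and Ldha (-0.87, SE 0.39). With the muscle covariate these differences were -0.26, -0.21 and -0.12. Of the 48 genes, 36 had a higher mean in Rag2-/- tumors, with a median difference of 0.14 against 0.06 over all genes. The list's median was -0.15 with the muscle covariate and 0.26 in the 15 listed tumors.

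Mxd3 had the highest correlation with Myc among the members. Over the 19 tumors r was 0.878 and rho 0.714 (permutation p = 1e-05 and 9.1e-04, adjusted p = 0.00045 and 0.0205 over 45 pairs), 0.849 without S51 and S56, 0.874 within Rag2-/- and 0.899 within Rag2+/- tumors. With the linear trend on muscle genes taken out of both, r was 0.635. Mxd3 also ranked with the MYC-induced mean (r = 0.829, rho = 0.825, adjusted p = 0.0005 and 0.0008). Within Rag2-/- tumors r was 0.744 (adjusted p = 0.105), within Rag2+/- tumors 0.971 (adjusted p = 0.0144, exact permutation) and in the 13 tumors with fewer muscle genes and without S46 0.715 (adjusted p = 0.0984), so the relation did not pass in the first and the last of these sets. It was also set against 12 proliferation genes such as Mki67, Top2a and Plk1. On the proliferation list the tumors fell into 2 clusters, 4 tumors between 0.79 and 1.85 (S51, S56, S59, S60) and 15 between 3.53 and 5.14, so no pooled value is given. Among the 14 tumors with fewer muscle genes, r was 0.846 and rho 0.829 (n = 14, permutation p = 1.3e-04, adjusted p = 0.005), and without S46 r was 0.767 with an adjusted p of 0.0624. Myc had r = 0.731 and rho = 0.429 with the proliferation list in those 14 tumors (adjusted p = 0.0308), and r = 0.570 without S46 (adjusted p = 0.215).

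Low Myc and Mxd3 levels coincided with muscle genes. In the 5 muscle-rich tumors Myc was 2.28 to 4.32, against 3.75 to 6.18 in the other 14, and the proliferation list 0.79 to 3.53 against 3.62 to 5.14. Max was 3.91 to 5.24 with a median of 4.72 in the muscle-rich tumors and 4.48 to 5.37 with a median of 5.14 in the others. Within the 14 tumors Myc had r = -0.375 and rho = -0.314 with muscle genes (permutation p = 0.183), and S46 sat apart, with a Myc level of 3.75 at a muscle mean of 6.81. Among the 13 without S46, r was -0.693 and rho -0.467 (permutation p = 0.00993, adjusted p = 0.0993). Muscle content and the level of Myc per tumor cell cannot be told apart in these bulk values.

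**Figure D4:**
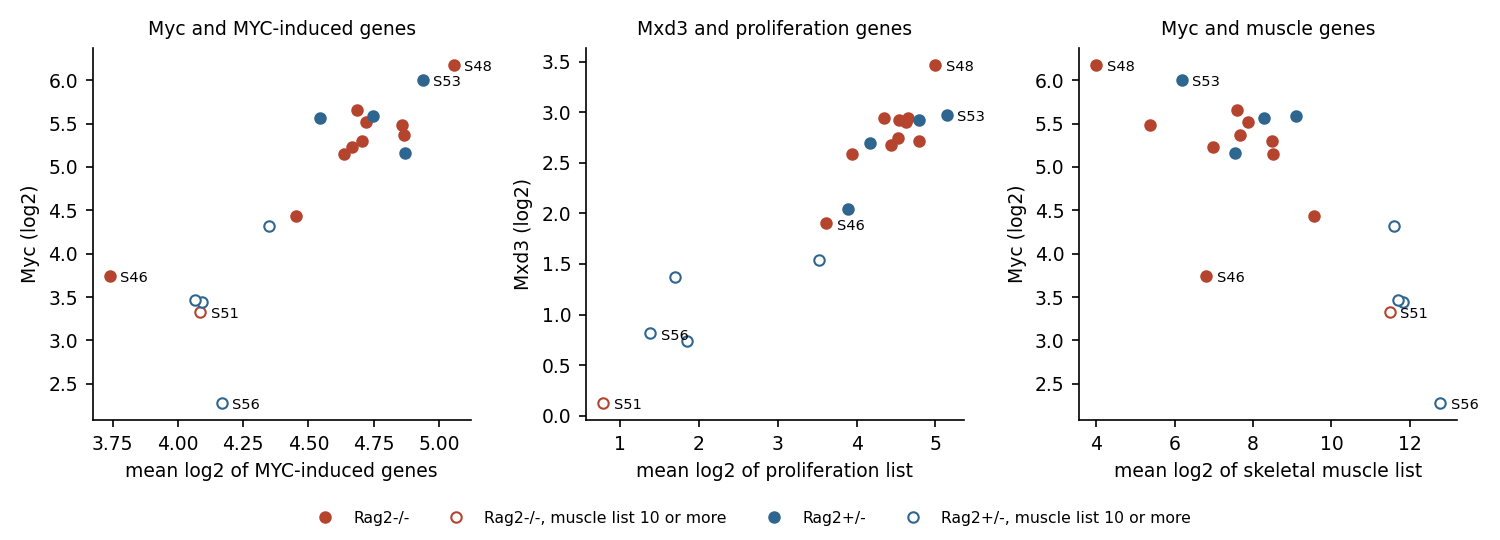
Log2 level of Myc against the mean log2 level of 49 MYC-induced genes (left), of Mxd3 against 12 proliferation genes (middle) and of Myc against 14 skeletal muscle genes (right), 1 point per tumor, open where the muscle mean is 10 or more. The 5 open points lie at the low end of Myc and Mxd3, and S46 is low for Myc at 3.75 with a muscle mean of 6.81.

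Among the 45 pairs of members, 30 had a positive r and 8 had an adjusted p under 0.05, of which 7 were positive. Max and Mnt varied together (r = 0.725, rho = 0.675, adjusted p = 0.0110 and 0.0320), and 0.560 remained without S56 and S59. Mga varied with Myc (r = 0.710, rho = 0.623, adjusted p = 0.0110 and 0.0547) and with Mxd3 (r = 0.685, rho = 0.747, adjusted p = 0.0144 and 0.0198), as Mycn did with Mxd3 (r = 0.649, adjusted p = 0.0235, rho = 0.522, adjusted p = 0.126). The pairs of Myc and of Mxd3 with Mnt, at 0.598 and 0.587, were at -0.01 and -0.05 once the muscle trend was removed. Mxi1 and Mnt were the only pair past the threshold in opposite directions (r = -0.628, adjusted p = 0.0287, rho = -0.612, adjusted p = 0.0547), and r was -0.380 without S46 and S56.

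The members were also set beside markers of other cells. Mxd1 ranked with 8 neutrophil genes, such as S100a8 and Csf3r (rho = 0.711, adjusted p = 0.00789, r = 0.524, adjusted p = 0.0931, n = 19), and r was 0.571 without S47 and S53. Within genotypes r was 0.557 in Rag2-/- and 0.323 in Rag2+/- tumors. Mxd1 ranked with 9 macrophage genes too (rho = 0.674, adjusted p = 0.0128, r = 0.499, adjusted p = 0.126). That r was 0.028 in Rag2-/- and 0.885 in Rag2+/- tumors (n = 8, exact permutation p = 1.49e-04, adjusted p = 0.00893). Mycl had r = 0.799 and rho = 0.532 with the macrophage genes (adjusted p = 0.00966 and 0.0852, n = 19), but r was 0.297 without S46 and S56, so the relation rests on those tumors. Max (r = 0.680) and Mxi1 (r = -0.591) passed with the same list. Without those tumors Max was at 0.242 and Mxi1 turned sign, to 0.262. With the T cell list, which separates the genotypes, no pooled value is given. Within Rag2+/- tumors, 1 of 10 members passed the adjustment over 60 relations, Mxd1 with r = 0.849 and rho = 0.857 (n = 8, exact permutation p = 0.00533, adjusted p = 0.0457), and its r was 0.273 in Rag2-/- tumors. The difference between the genotypes was not tested. In the same 8 Rag2+/- tumors Mxd1 had a higher r with the macrophage genes, 0.885, than with the T cell genes. Within Rag2-/- tumors 0 of 10 passed, with r of -0.627 for Myc, -0.604 for Mycn and 0.633 for Mycl (n = 11, permutation p = 0.0385, 0.0482 and 0.0363, adjusted p = 0.130, 0.132 and 0.130). Myc had r = 0.153 and Mycl 0.357 in Rag2+/- tumors.

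By rank across the 19 tumors, the genes most like Myc were Tra2a (rho 0.961), an RNA splicing factor, St5 (0.960), Ror2 (0.947), a receptor of WNT5A, Efemp2 (0.942), a matrix protein, and Rcor1 (0.940), a corepressor. For Mycl they were Rnpep (0.854), Lrch4 (0.784), Irak2 (0.779), Zeb2 (0.770) and Slamf6 (0.770). Likeness here is Spearman's rho over 19 tumors without a test.

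Within 2 Mb of Myc, 4 annotated genes had a mean above 0. In S48, where Myc stood 0.95 above the median tumor, they stood above it by 0.69 (Fam84b), 1.09 (9930014A18Rik, which overlaps Fam84b), 0.48 (Pvt1) and 0.17 (Fam49b). The 6 neighbours of Mycn in S54, where Mycn was 1.15 above its median, had a median of 0.08, and the 24 neighbours of Mycl in S53, where Mycl was 1.07 above, a median of 0.13. A rise of 1 log2 unit or more over the median tumor was seen in 1 of the 4 neighbours of Myc and in 0 of those of Mycn and Mycl. The share of all genes with such a rise in these tumors was not computed, and S48 had the lowest muscle gene mean, 4.01.

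The proteins around the network were followed by RNA as well, and 0 genes of any pathway list passed the adjustment by limma. Among 11 MYC coactivators, 9 had a higher mean in Rag2-/- tumors, as did 7209 of all 12826 genes, with a median difference of 0.22 against 0.06 over all genes and of -0.10 with the muscle covariate. At an unadjusted p under 0.05, which 16.3% of all genes reached, 3 of the 11 were past the threshold. Ep400 (0.52, SE 0.21) and Trrap (0.43, SE 0.20), parts of the TIP60 acetylase complex, were higher, and Zbtb17, the MIZ1 protein through which MYC represses, was lower (-0.56, SE 0.22). With the muscle covariate these were 0.15, 0.11 and -0.22. Past the same threshold were 1 of 10 SIN3 corepressor genes, Sin3b (0.28, SE 0.12), and 1 of 10 genes of the MGA complex, E2f6 (-0.97, SE 0.40). Hdac2, also of the SIN3 list, went from -0.13 to -0.39 with the muscle covariate (unadjusted p = 0.00881 by limma).

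Of 8 genes that set the turnover of MYC protein, 2 had an unadjusted p under 0.05, against 16.3% of all genes. Fbxw7, the ubiquitin ligase receptor that marks MYC for degradation, was at 1.70 ± 0.21 (SD, n = 11) in Rag2-/- and 2.30 ± 0.42 (SD, n = 8) in Rag2+/- tumors. The difference of -0.60 (SE 0.16) had an unadjusted p of 0.00111 and an adjusted p of 0.301 by limma. With the muscle covariate it was -0.34 (unadjusted p = 0.0138 by limma), in a fit where 4.13% of all genes had an unadjusted p under 0.05. Usp28, the protease that opposes FBXW7, had a lower mean as well (-1.07, SE 0.39, unadjusted p = 0.0129, adjusted p = 0.301 by limma), and at -0.32 with the covariate.

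Of 7 genes that MYC is known to repress, Gadd45a (-1.15, SE 0.47) and Ndrg2 (-1.89, SE 0.83) were past the unadjusted threshold, against 16.3% of all genes. Both were lower in Rag2-/- tumors, and with the muscle covariate they were at -0.36 and 0.02. Cdkn1a, the p21 inhibitor and also a p53 target, was at -0.61 (SE 0.39). Their list was mixed against Myc, with a median rho of 0.32. It had 1 gene above 0.5 and 1 below -0.5 (14.3% each), against 30.3% and 23.5% of all genes. In the MLX branch, the sister network that senses glucose, Mlxip and Mlxipl had means lower by 0.51 and 0.85 in Rag2-/- tumors (adjusted p = 0.337 and 0.510 by limma), and of its targets Txnip was at -0.32 and Arrdc4 at 0.04. The differences were 0.04 for Mlxip, 0.77 for Mlxipl, 0.40 for Txnip and 0.28 for Arrdc4 with the muscle covariate. All 12 proliferation genes had a higher mean in Rag2-/- tumors, with a median of 0.82, and 0 of 12 had an unadjusted p under 0.05, against 16.3% of all genes. The median was -0.29 with the muscle covariate.

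**Figure D5:**
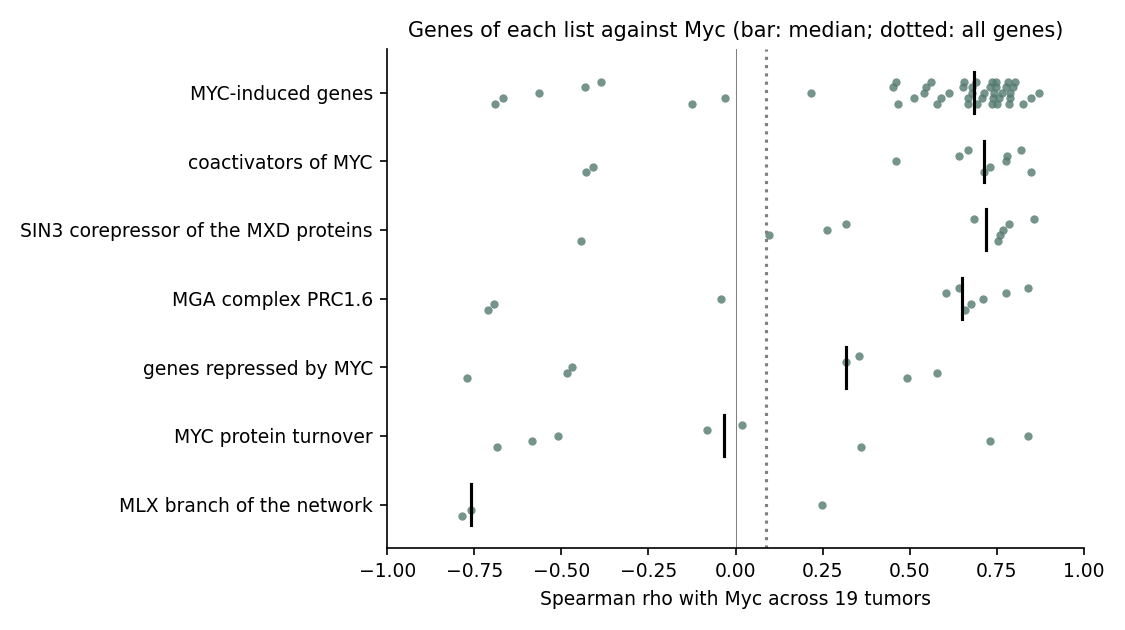
Spearman rho with Myc across 19 tumors for each tested gene of 7 pathway lists, 1 point per gene, with a bar at the list's median and a dotted line at the median over all genes, 0.09. Medians are 0.68 for MYC-induced genes, 0.71 for coactivators, 0.32 for genes repressed by MYC and -0.76 for the MLX branch.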

How the data were processed

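RNA of 19 p53/MCA sarcomas had been sequenced as paired 150-base reads, 1 library per tumor. According to the methods, the authors aligned reads with the Omicsoft Sequence Aligner to mouse B38 and quantified Ensembl genes, while the processing notes in the labels list Trimmomatic 0.36, STAR, HTSeq and mm10. The deposited values are log2 FPKM, upper-quartile normalized by the authors, each with 0.1 added, and 63.0% of them are at the floor of -3.32. Count models were not applied to these normalized values. Each of the columns was matched to a tumor, and 0 were left over.

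The members and the 19 gene lists (200 genes) were chosen with earlier results of these data known. Gene identifiers were matched to symbols for 48349 of 48795. Positions and overlaps come from GENCODE vM21 on GRCm38. Fragments were estimated from low values of 28162 genes with 1 transcript, of which 80.2% to 90.8% per tumor were whole within 0.05 fragments, and S41 is the shallowest.

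Genotypes were compared with limma 3.58.1 (R 4.3.3, intensity trend, Benjamini-Hochberg at 0.05) over genes with a mean log2 value above 0, and by exact permutation over 75582 relabelings, with a smallest possible p of 1.32e-05. The script was tested on simulated data. The mice were littermates, but no litter or batch is given per tumor in the sources used here. Neither was modelled, and p-values treat the tumors as independent. Correlations used 100000 permutations, or all of them for 8 tumors. Named genes were the members, the 5 genes most like Myc and Mycl, the 3 lowest p per direction of each pathway list, and genes within 2 Mb of a MYC gene. Npm1, Ncl and Cdk4 were named outside this rule, after their values were seen. Python 3.11.15, numpy 2.4.6, pandas 2.3.3, scipy 1.17.1 and matplotlib 3.10.9 were used. Alternatives were 15 listed tumors, each tumor left out, pseudocounts of 1 and 0.01, 2 normalizations, 2 covariates, other filters and no trend. The 14 tumors with a muscle mean below 10, the 13 without S46 and the removed muscle trend were added after seeing the data. Exomes, mutations and transplant tumors were not analysed here.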

Additional observations from a re-analysis of the deposited data

Results flagged for a closer look

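Among the Rag2+/- tumors, 11 measures (10 members and the ratio of the MYC family to its antagonists) were examined for a single tumor far from the others, and 1 was found. Mycl was at -2.50 in S56, and its gap to the next tumor was 0.628 of the group's range, above the critical value of 0.526. Chance flags about 1 group in 20. The value rests on 3 estimated fragments, S56 has the highest muscle gene mean (12.8), and the part of either was not tested. The 11 Rag2-/- tumors were not examined in this way, so single tumors may stand apart there too. In that group Mxd1 was at 5.01 in S51 and next highest at 3.36, Mxd3 was at 0.12 in S51 and next lowest at 1.90, and Mxd4 was at 5.75 in S46 and next highest at 4.86.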

How the results depend on the processing

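No paired analysis was possible because the labels tie no Rag2-/- tumor to a Rag2+/- tumor and give no replicate numbers. Over 29 alternatives for each member, 290 in all, 0 passed the adjustment (adjusted p 0.0946 to 1 by limma). The sign turned in 9. With the muscle covariate the differences were -0.32 for Myc, -0.19 for Mycn, -0.15 for Mycl and -0.068 for Mxd3. With the proliferation covariate they were -0.038 for Myc, -0.055 for Mycn and -0.017 for Mycl. Mycl was at -0.27 in the 15 listed tumors and at -0.21 without S56. With single tumors left out, the differences ran from 0.25 to 0.78 for Myc, 0.08 to 0.50 for Mycn, -0.21 to 0.31 for Mycl, 0.27 to 0.47 for Max, 0.33 to 0.68 for Mxd1, 0.49 to 0.89 for Mxd3, 0.17 to 0.35 for Mxd4, -0.27 to -0.14 for Mxi1, 0.20 to 0.29 for Mnt and 0.12 to 0.24 for Mga, with 0 called each time. The 4 genes past the adjustment among 12826 became 10 in the 15 listed tumors, 2 with the muscle and 3 with the proliferation covariate, 26 with no filter and constant genes kept, 0 with a mean above 2 required (1676 genes with an unadjusted p under 0.05 by limma), and 3 to 7 with a tumor left out, the 7 without S56. With the muscle covariate, list medians turned from 0.22 to -0.10 for coactivators, from 0.14 to -0.063 for SIN3, from 0.095 to -0.097 for the MGA complex, from 0.14 to -0.15 for MYC-induced genes, from 0.82 to -0.29 for proliferation, from -0.51 to 0.16 for the MLX branch and from -0.14 to 0.34 for its targets. Of the 60 relations of members with lists, 15 passed over all tumors, 7 within Rag2-/-, 7 within Rag2+/-, 5 in the 14 tumors with a muscle mean below 10 and 0 in the 13 without S46. Of the 45 pairs of members, 8 passed over all tumors, 7 within Rag2-/-, 3 without the 2 farthest tumors and 0 within Rag2+/-. The cause was not tested, beyond fewer tumors in the smaller sets. The ratio of the family to the antagonists was 0.66 in Rag2-/- and 0.63 in Rag2+/- tumors without Mga. Depth limits Mycn (0 to 47 estimated fragments) and Mycl (3 to 183).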
